A study of Mus musculus with 35 samples.

Results

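The genes described here are 7 metalloproteases of the vessel wall, Adamts1, Adamts4, Adamts5, Adamts8, Adamts15, Adam8 and Adam12, read through the 11 probes that carry these names on an Agilent mouse whole-genome array, out of 41174 probes in all. All 7 genes had a probe that passed the filter on dim signal, among 18671 genes tested. RNA came from the suprarenal aorta of male ApoE-/- mice, which lack apolipoprotein E, with 1 aorta on each of 35 arrays. An osmotic minipump had been implanted at 12 to 14 weeks of age and delivered angiotensin II (Ang II) at 1000 ng/kg/min or saline. The groups were 3 aortas that had dissected under Ang II at 7 days, 4, 5 and 6 Ang II aortas at 7, 14 and 28 days, and 6, 6 and 5 saline aortas at the same times. Every group carried the ApoE deletion, and the labels do not say how dissection was scored. The entire suprarenal segment was taken after saline perfusion, so all wall layers and any attached tissue or clot were read together.

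ADAMTS proteases are secreted enzymes that cut matrix proteins. Adamts1, Adamts4, Adamts5, Adamts8 and Adamts15 are among the family genes whose enzymes cleave the large hyaluronan-binding proteoglycans aggrecan and versican, which hold water in the wall. ADAM proteases mostly span the cell membrane and cut proteins at the cell surface. Adam8 is known as a protease of myeloid cells, and Adam12 as one of growing muscle and connective tissue that can cut insulin-like growth factor binding proteins and the ligand Hbegf. Tissue inhibitors of metalloproteinases restrain these enzymes, and Timp3 is the main one for aggrecanases.

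The results turn on 3 genes, and the first 30 of the 60 bases of each of their probes are shown here 5′ to 3′, as the scanner files give them, because Adamts4 and Adam8 were each read by a single probe and Adamts5 by a pair whose signals differed.

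Adamts4: gggaaactcacctattatagccctaaccta

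Adam8: atgagacttaggaaaggaaaagacgtcgtt

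Adamts5, brighter probe: gagtcgaattatgggcagaatctgctctct

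Adamts5, dimmer probe: tttgtgtatttctaataccagtcataacct

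On the mm8 build named in the file headers, the Adamts4 probe lies at chr1:173096215-173096274 on the plus strand and the Adam8 probe at chr7:139830349-139830408 on the minus strand. The brighter Adamts5 probe lies at chr16:85751628-85751687 and the dimmer one at chr16:85748152-85748211, both on the minus strand and 3476 bases apart from start to start. Exon and UTR annotation of that build was not used here. Adamts1 lies beside Adamts5, with 63.0 kb between their nearest probes on chromosome 16, and Adamts15 beside Adamts8, with 63.1 kb between theirs on chromosome 9.

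Values below are log2 ratios of aorta RNA to a universal mouse reference RNA hybridised on the same array, so 0 means as bright as the reference, and a level is compared only between aortas and never between probes. A gene was called when its adjusted p was under 0.05 in limma (Benjamini-Hochberg over all 18671 genes), and "rose" and "fell" are kept for such calls. Between 45.0% and 84.8% of the gene spots of an array were well above background in the aorta channel. The markers of contractile smooth muscle were present, their mean log2 ratio lying between 1.41 and 4.73 on every array. Some arrays stood apart. In 1 saline aorta at 7 days and 2 at 28 days the ratios were narrow, with a median absolute log2 ratio between 0.04 and 0.10, and in 1 Ang II aorta at 14 days they were wide, at 0.40, against a median of 0.25 over all arrays. The arrays were scanned on 2 days, and all 3 dissected aortas were scanned on the second with 3 of the saline aortas and 1 non-dissected Ang II aorta of 7 days.

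After 7 days of Ang II, Adamts4 and Adam8 rose and the other 5 genes did not pass the test. Among all genes tested, 27.1% passed, 14.5% upward and 12.6% downward. All 7 genes had a difference above 0 at their brightest probe, with a median of 0.60, against -0.0035 over all genes tested. Of all 18671 genes, 9256 lay above 0. The dimmer probes of Adamts1, Adamts5 and Adamts8 differed by -0.10, 0.04 and 1.18.

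Adamts4, an aggrecanase induced by inflammatory cytokines, had log2 ratios of 0.83, 0.19, 0.57 and 1.03 in the Ang II aortas of 7 days, against -0.98 at the lowest, -0.79 at the median and -0.38 at the highest in 6 saline aortas. Every Ang II aorta lay above every saline aorta. The means were 0.65 ± 0.36 (SD, n = 4) and -0.75 ± 0.22 (SD, n = 6), a difference of 1.40 with a standard error of 0.19, or 2.65-fold (limma adjusted p = 5.14e-06). It was 1.53 (adjusted p = 0.00243) among the arrays of the first scan day and 1.22 (adjusted p = 0.111) on the second, which held 1 Ang II aorta. Of the 6 saline aortas, 4 were well above background at this probe, so the lower level is near the limit of detection.

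Adam8 had log2 ratios of -0.54, -1.10, -1.43 and -0.97 in the Ang II aortas of 7 days, against -3.14 at the lowest, -3.01 at the median and -2.57 at the highest in saline aortas. The groups were again apart, and the saline aortas lay close together. The difference was 1.95 with a standard error of 0.49, or 3.87-fold (limma adjusted p = 0.00418). On the first scan day it was 2.02 (adjusted p = 0.00526), and on the second 1.61 (adjusted p = 0.487). With the mean marker levels of fat, of chromaffin cells and sympathetic neurons, of kidney tubule and of liver as covariates it was 1.75 and no longer called (adjusted p = 0.0802), where Adamts4 kept its call at 1.38 (adjusted p = 0.000984). At this time 4 of 7 chromaffin and sympathetic markers and 2 of 7 brown fat markers fell.

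**Figure D1:**
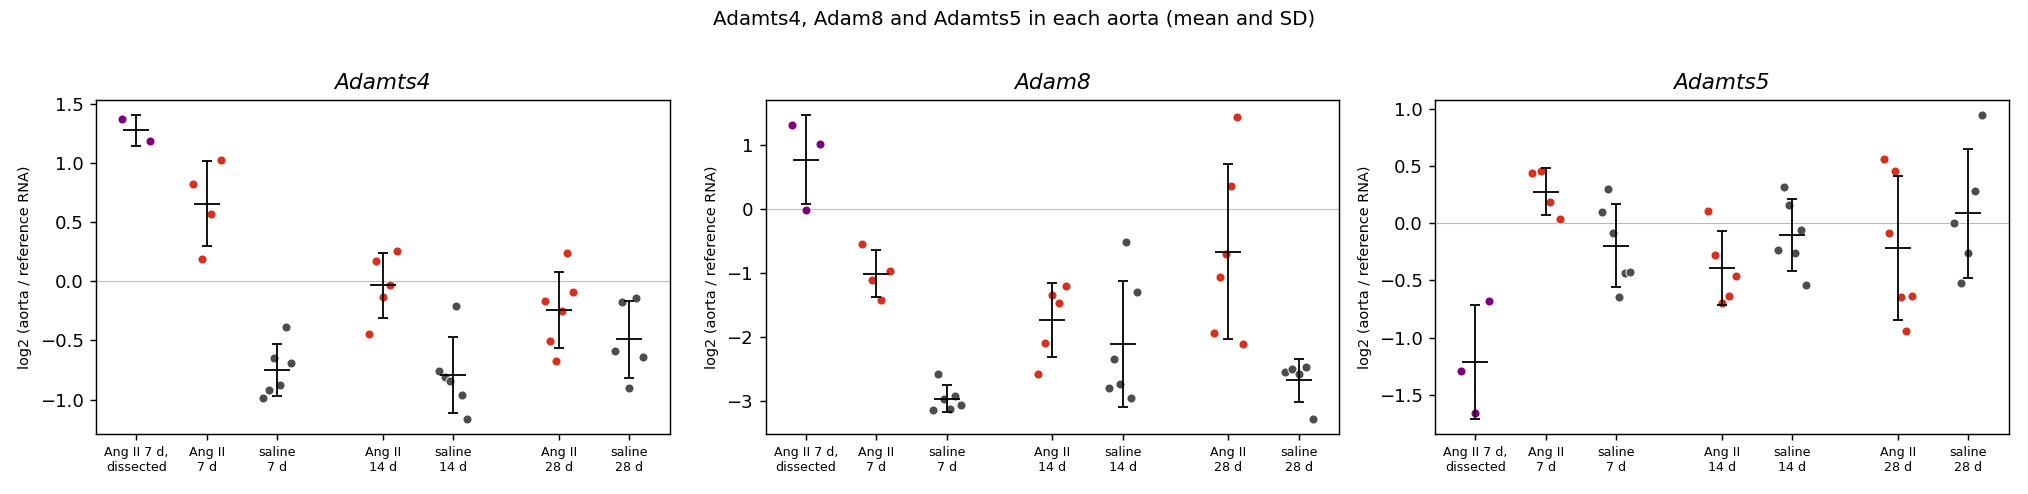
Log2 ratio of aorta to reference RNA (vertical axis) for Adamts4, Adam8 and Adamts5 in each aorta, with the dissected and non-dissected Ang II groups left of saline at each time. Points are aortas and bars the mean and SD. The group means of Adamts4 and Adam8 were highest in dissected aortas, where that of Adamts5 was lowest, and 1 dissected aorta has no Adamts4 value.

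At 14 days Adamts4 was the only one of the 7 genes to pass the test, where 2.4% of all genes did, 1.12% upward and 1.28% downward. Its log2 ratios were -0.45, 0.17, -0.13, -0.03 and 0.25 in Ang II aortas, and in 6 saline aortas -1.16 at the lowest, -0.83 at the median and -0.21 at the highest. All but 1 of the Ang II aortas lay above every saline aorta. The difference was 0.76 with a standard error of 0.18 (limma adjusted p = 0.0236). This call was lost when any of 5 single arrays was left out, Ang II replicate 2, 3, 4 or 5 or saline replicate 1, with adjusted p between 0.0509 and 0.0700. It was lost too within either scan day, where the difference was 0.93 (adjusted p = 0.152) on the first and 0.60 (adjusted p = 0.501) on the second. Of 6 kidney tubule markers 4 fell at 14 days, with a median of -1.21, their mean running from -0.05 to 0.11 in Ang II aortas and from 0.06 to 2.31 in saline aortas. With the marker levels of neighbouring tissues as covariates the Adamts4 difference was 0.87 and not called (adjusted p = 0.108). Adam8 had a difference of 0.37 with a standard error of 0.46 at this time (adjusted p = 0.699), and its Ang II values, -2.57 to -1.20, lay within the range of the saline ones, -2.96 to -0.51.

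At 28 days Adam8 was called and Adamts4 was not. Of all genes, 0.9% passed, 0.836% upward and 0.0643% downward. Adam8 had log2 ratios of -2.11 at the lowest, -0.88 at the median and 1.44 at the highest in 6 Ang II aortas, against -2.54, -2.50, -2.58, -2.47 and -3.27 in saline aortas. The Ang II aortas spread over more than 3 log2 units, yet all lay above the saline aortas. The difference was 2.00 with a standard error of 0.46, or 4.01-fold (limma adjusted p = 0.0256). It was 1.30 (adjusted p = 0.229) within the first scan day and 2.66 (adjusted p = 0.0462) within the second. The call was lost without any of 6 single arrays, Ang II replicate 4 or 5 or saline replicate 1, 2, 4 or 5, with adjusted p between 0.0557 and 0.0905. It was lost as well without the 4 arrays of narrow or wide ratios (2.13, adjusted p = 0.175). Adamts4 averaged -0.24 ± 0.32 (SD, n = 6) in Ang II aortas and -0.49 ± 0.32 (SD, n = 5) in saline aortas at 28 days. The difference was 0.25 (limma adjusted p = 0.545). Over 18 other settings it ran from 0.09 to 1.64 and was called in 3, with limma adjusted p down to 0.0149. Of the 5 saline aortas, 2 were well above background at this probe, so the saline level is near the limit of detection here too.

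Adamts4 was the only one of the 7 whose Ang II effect differed among the times (limma F = 9.75, adjusted p = 0.0422), where 1.48% of all genes passed. The saline level of Adamts4 was near the limit of detection at 7 and 28 days, with 4 of 6 and 2 of 5 saline aortas well above background. Its effect at 28 days was 1.15 below that at 7 days on the log2 scale, with a standard error of 0.26 (limma adjusted p = 0.0144, with 2.63% of all genes passing and 1.98% downward). That call was kept in each of the 21 fits without 1 array and in 9 of 18 other settings, where the adjusted p reached 0.417. It was lost with no background correction, on the processed signals or the deposited table, under median centring or scale normalization, within either scan day, with tissue covariates and without the 4 arrays of narrow or wide ratios. The effect at 14 days differed from that at 7 days by -0.65 (adjusted p = 0.159), where 1.02% of all genes passed. The F test was kept in 6 of 18 other settings, with an adjusted p of up to 0.516. It was lost without any one of 16 of the 32 arrays in it, with F between 7.33 and 9.63. These were Ang II replicates 1 and 4 of 7 days, 3 of 14 days and 2, 3, 4 and 6 of 28 days, and saline replicates 1, 2, 4 and 6 of 7 days, 2 and 3 of 14 days and 2, 4 and 5 of 28 days. For Adam8 the F test gave an adjusted p of 0.196. In saline aortas none of the 7 genes passed the F test over time, the adjusted p running from 0.542 to 0.967, where 0.503% of all genes passed.

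In dissected aortas at 7 days Adamts4 and Adam8 rose above saline and Adamts5 fell below it. Of all genes, 36.5% passed in this comparison, 18.9% upward and 17.6% downward. The median of the 7 genes was 0.06, against -0.04 over all genes. The groups did not overlap for 4 of the 7, the called genes and Adam12, as for 17.2% of all genes upward and 16.3% downward.

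Adamts4 had log2 ratios of 1.37 and 1.18 in 2 dissected aortas. The third value was left out because the scanner software marked the reference channel of that spot as non-uniform. Both stood above the 6 saline aortas, whose highest was -0.38, by a difference of 2.03 with a standard error of 0.24, or 4.08-fold (limma adjusted p = 2.16e-07). With the marked spot kept, the difference was 1.89 (adjusted p = 6.33e-08). Against non-dissected Ang II aortas of 7 days it was 0.62 with a standard error of 0.26 (adjusted p = 0.137).

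Adam8 had log2 ratios of 1.32, -0.01 and 1.01 in dissected aortas, 0.77 ± 0.70 on average (SD, n = 3), against -2.96 ± 0.21 in saline aortas (SD, n = 6). This was the largest difference of the 7 genes in any of the 5 comparisons, 3.73 with a standard error of 0.54, or 13.3-fold (limma adjusted p = 3.2e-06). Within the second scan day it was 3.80 (adjusted p = 0.00192). Dissected aortas also lay above all 4 non-dissected Ang II aortas, by 1.78 with a standard error of 0.58, which missed the threshold (adjusted p = 0.0539).

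Adamts5, the main aggrecanase of mouse cartilage, went the other way. At its brighter probe it had log2 ratios of -1.29, -1.66 and -0.68 in dissected aortas, against 0.44, 0.45, 0.18 and 0.03 in non-dissected Ang II aortas and -0.65 to 0.30 with a median of -0.25 in saline aortas of 7 days. All 3 dissected aortas lay below every aorta of both other groups, the nearest by a narrow margin. The difference from saline was -1.01 with a standard error of 0.30 (limma adjusted p = 0.00891), and that from non-dissected Ang II -1.49 with a standard error of 0.33 (adjusted p = 0.00491). Both comparisons share the dissected arrays. In the comparison with non-dissected Ang II, Adamts5 was the only one of the 7 called, where 8.03% of all genes passed, 3.06% upward and 4.98% downward, and 5 of the 7 genes did not overlap between the groups, as for 11.8% of all genes upward and 15.1% downward. The median of the 7 genes was -0.51, against -0.0011 over all genes.

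The dimmer Adamts5 probe ran the same way, with log2 ratios of -0.73, -0.59 and -0.37 in dissected aortas, 0.30, 0.18, 0.30 and 0.16 in non-dissected ones, and 0.06 to 0.40 in saline aortas. It was not well above background in any dissected aorta. It was therefore at least 1.39-fold lower than in saline and at least 1.49-fold lower than in non-dissected Ang II aortas, where a bound sets the dim group at the lowest signal counted as well above background or at the probe's own, if higher (limma adjusted p = 0.0111 and 0.0488 among all probes). For the brighter probe, the call against saline was kept in 14 of 17 other settings, with limma adjusted p up to 0.348. That against non-dissected Ang II was kept in 13 of 17, with adjusted p up to 0.397. Both were lost under scale normalization and with slide as a block (-1.14 from saline, adjusted p = 0.0523). The call against saline was also lost without dissected replicate 2 (-0.79, adjusted p = 0.0821). Within the second scan day the difference was -0.71 from saline (adjusted p = 0.0596) and -1.39 from the 1 non-dissected aorta there (adjusted p = 0.154). With the markers of neighbouring tissues as covariates it was -1.11 from non-dissected Ang II (adjusted p = 0.0525).

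**Figure D2:**
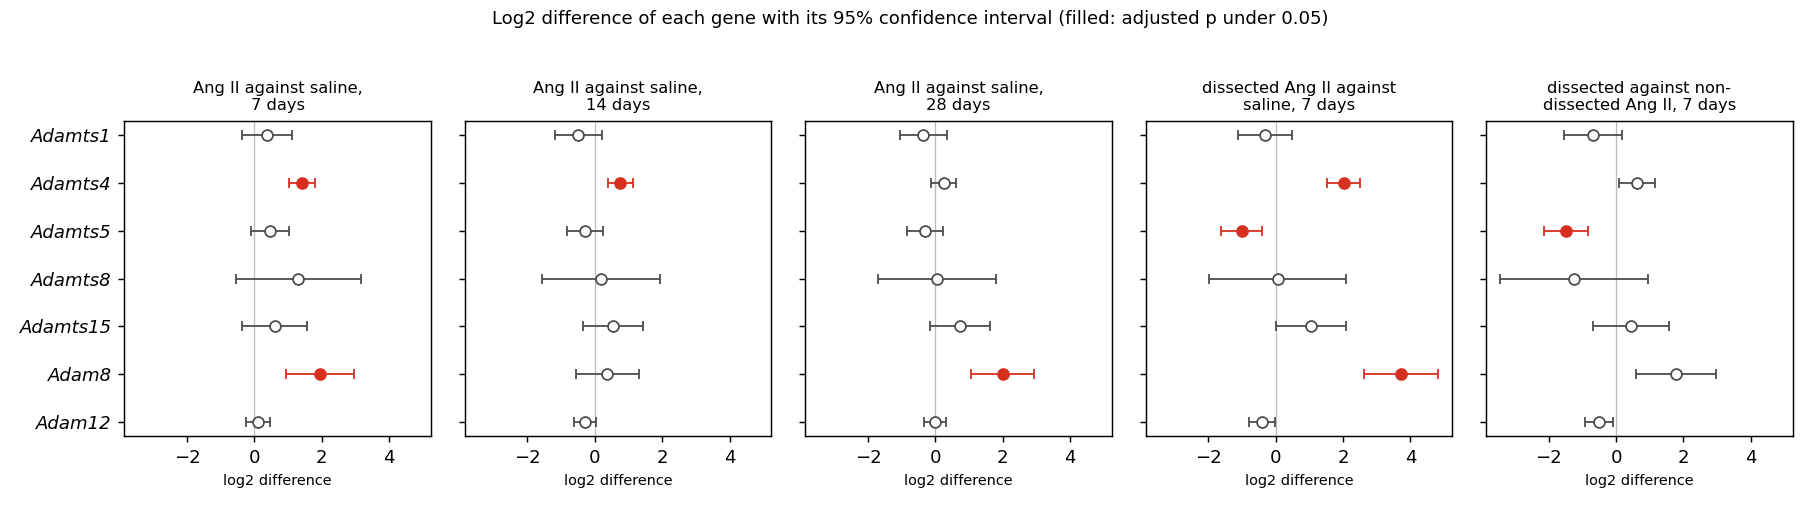
Log2 difference (horizontal axis) of each of the 7 genes in 5 comparisons, with its 95% confidence interval. Filled points passed an adjusted p of 0.05. Adamts4 and Adam8 passed at 7 days at 1.40 and 1.95 and in dissected aortas at 2.03 and 3.73, and Adamts5 passed only on the side below 0, in both comparisons of dissected aortas.

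The remaining 4 genes passed in none of the 5 comparisons. Adamts1, which cleaves versican, was read by probes 1147 bases apart that differed in sign at 7 days. Its brighter probe had log2 ratios of 0.45, 0.08, 0.79 and 0.34 in Ang II aortas and -0.63 to 0.75 in saline aortas, a difference of 0.37 (95% interval -0.36 to 1.10), where the dimmer one differed by -0.10 (-0.68 to 0.48). At 28 days the brighter probe averaged 0.24 ± 0.39 in Ang II aortas (SD, n = 6) and 0.60 ± 0.34 in saline aortas (SD, n = 5).

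Adamts8, an ADAMTS of vessels and lung, varied most among aortas of 1 group. In Ang II aortas of 7 days it had log2 ratios of 4.88, 5.08, 5.69 and 6.35, against 1.07 to 6.07 in saline aortas, and at 28 days 2.68 to 5.63 in Ang II aortas, against 4.50, 0.50, 4.17, 2.52 and 7.14 in saline aortas. The lowest saline values, 1.07 at 7 days and 0.50 and 2.52 at 28 days, were those of the arrays with narrow ratios. The difference at 7 days was 1.30, with a 95% interval from -0.56 to 3.17 that leaves room for a change of several fold. Its second probe, which shares 1 base with the first, differed by 1.18 (-0.48 to 2.84). The 2 probes differed in sign elsewhere, with -0.11 against 0.18 for the first at 14 days and -0.15 against 0.05 at 28 days. In dissected against saline aortas they gave -0.62 and 0.06, and none of these was called.

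Adamts15, another aggrecanase, was above saline on average in every comparison with it, by 0.60, 0.55 and 0.73 at 7, 14 and 28 days and by 1.04 in dissected aortas (95% interval -0.0022 to 2.09, adjusted p = 0.112). Its log2 ratios were 4.78, 4.80 and 4.17 in dissected aortas and 1.93 to 4.34 in saline aortas of 7 days, so the groups overlapped. The difference in dissected aortas was called in 5 of 17 other settings, among them the software's processed signals (1.10, limma adjusted p = 0.0103). The lowest saline value of 7 days, 1.93, was that of an array with narrow ratios. Leaving out 1 array took the difference as low as 0.27 at 7 days and 0.25 at 28 days. Over 18 other settings it ran from 0.06 to 1.33 at 7 days and from -1.86 to 1.57 at 28 days.

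Adam12 was near the limit of detection. Its brighter probe was well above background on 15 of 35 arrays, on none of the 3 dissected aortas and on 4 of the 6 saline aortas of 7 days. The dissected log2 ratios, -0.17, -0.23 and -0.21, lay below the saline ones, which ran from -0.08 to 0.52. The difference of -0.40 missed the threshold (limma adjusted p = 0.0937). It passed when same-numbered arrays of all 7 groups shared a block (-0.51, limma adjusted p = 0.0312). As a bound it was at least 1.19-fold lower in dissected than in saline aortas.

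**Figure D3:**
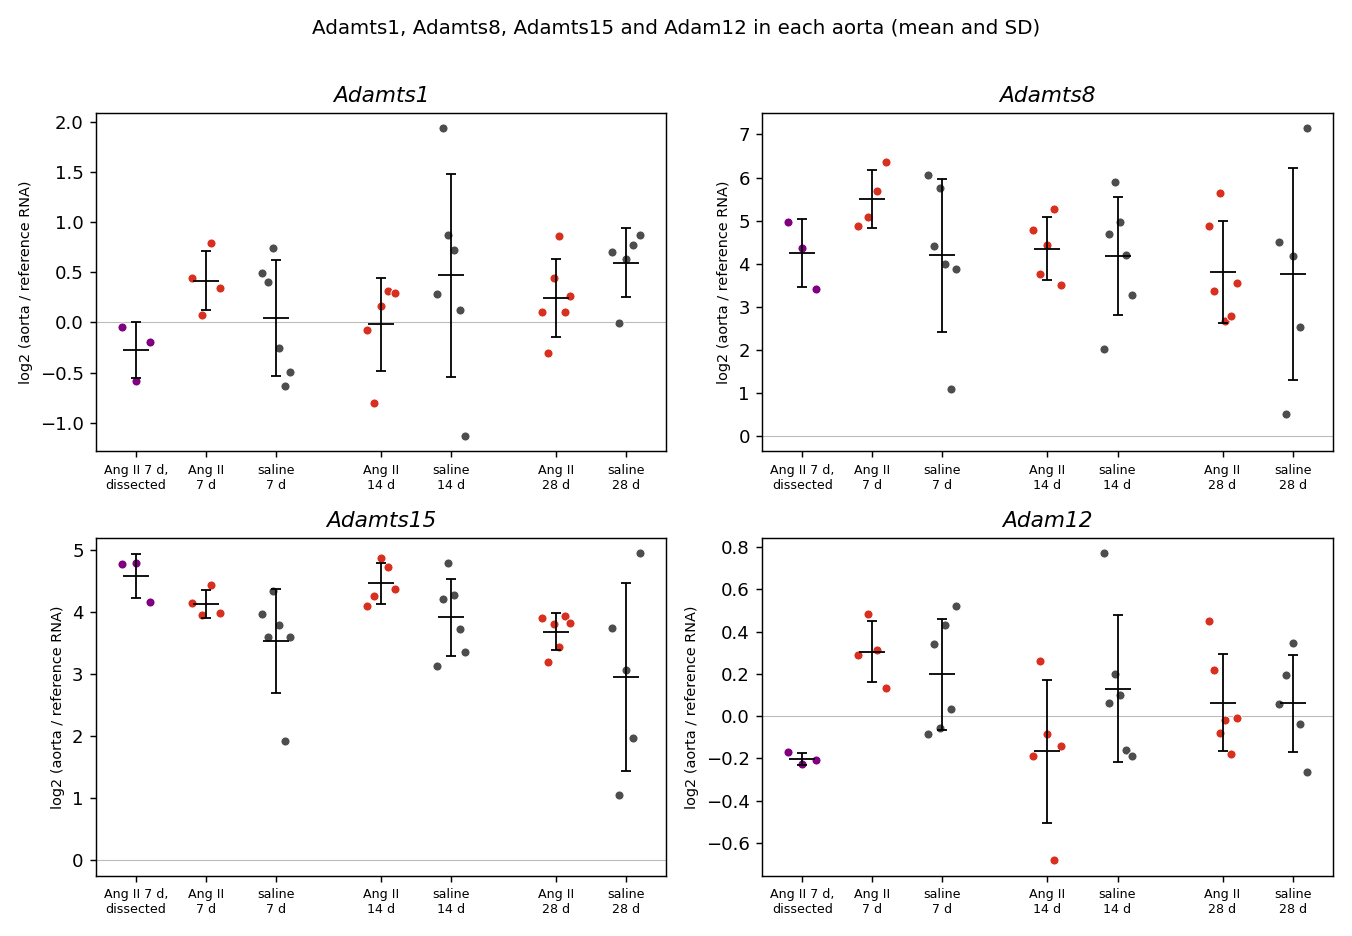
Log2 ratio of aorta to reference RNA (vertical axis) for Adamts1, Adamts8, Adamts15 and Adam12 in each aorta, with dissected and non-dissected Ang II left of saline. Points are aortas and bars the mean and SD. At 7, 14 and 28 days Ang II and saline overlap for all 4 genes, the dissected aortas lie apart from saline for Adam12 and from non-dissected Ang II for Adam12 and Adamts1, and Adamts8 in saline at 28 days spans 0.50 to 7.14.

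Markers of other cells moved in some of the same comparisons. Of all genes, 14.5% rose at 7 days, 1.12% at 14 days, 0.836% at 28 days and 18.9% in dissected against saline aortas. Of 9 monocyte and macrophage markers, 9 rose at 7 days, 2 at 14 days, 5 at 28 days and 9 in dissected aortas. Their mean log2 ratio ran from 1.81 to 2.75 in dissected aortas, from 1.48 to 2.39 in Ang II aortas of 7 days and from -0.77 to 0.16 in saline aortas of 7 days. Of 7 fibroblast markers, 5 rose at 7 days, 2 at 14 days, 1 at 28 days and 1 in dissected against saline aortas, with a median of 1.28 at 7 days. Across the 35 arrays Adam8 followed the mean of the monocyte and macrophage markers with r = 0.86. Once each group's own mean was taken off, r was 0.61, both as descriptions. For Adamts4 the same figures were 0.72 and -0.02. Between dissected and non-dissected aortas none of the 9 macrophage markers was called, with a median difference of 0.15, in the comparison where Adam8 differed by 1.78. The part of cell numbers in these results was not tested, and in whole aortas more cells of a type and more RNA per cell cannot be told apart.

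Platelet and neutrophil markers also differed in dissected aortas. Of all genes, 18.9% rose there above saline, and 3.06% rose and 4.98% fell against non-dissected Ang II. Of 5 platelet markers 2 rose above non-dissected Ang II, Pf4 by 2.48 (adjusted p = 0.0047) and Gp9 by 2.55 (adjusted p = 0.021), and their mean ran from 1.84 to 2.57 in dissected and from -0.07 to 0.91 in non-dissected aortas. Of 6 neutrophil markers tested 2 rose above saline, S100a8 by 2.48 (adjusted p = 0.012) and Mpo by 1.16 (adjusted p = 0.0022), while Camp, Ltf and Ngp differed by 0.10, -0.03 and -0.30 with adjusted p of 0.37 or more. Of 7 fibroblast markers 1 was lower in dissected than in non-dissected aortas, with a median of -1.36, and their mean ran from 2.08 to 2.92 in dissected and from 3.49 to 3.95 in non-dissected aortas. None of the 8 smooth muscle markers was called between those groups, with a median of -1.17. Adamts5 followed the fibroblast mean with r = 0.30 over 35 arrays and 0.62 within groups, and the smooth muscle mean with 0.61 and 0.56. The part of these cells in the lower Adamts5 of dissected aortas was not tested.

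**Figure D4:**
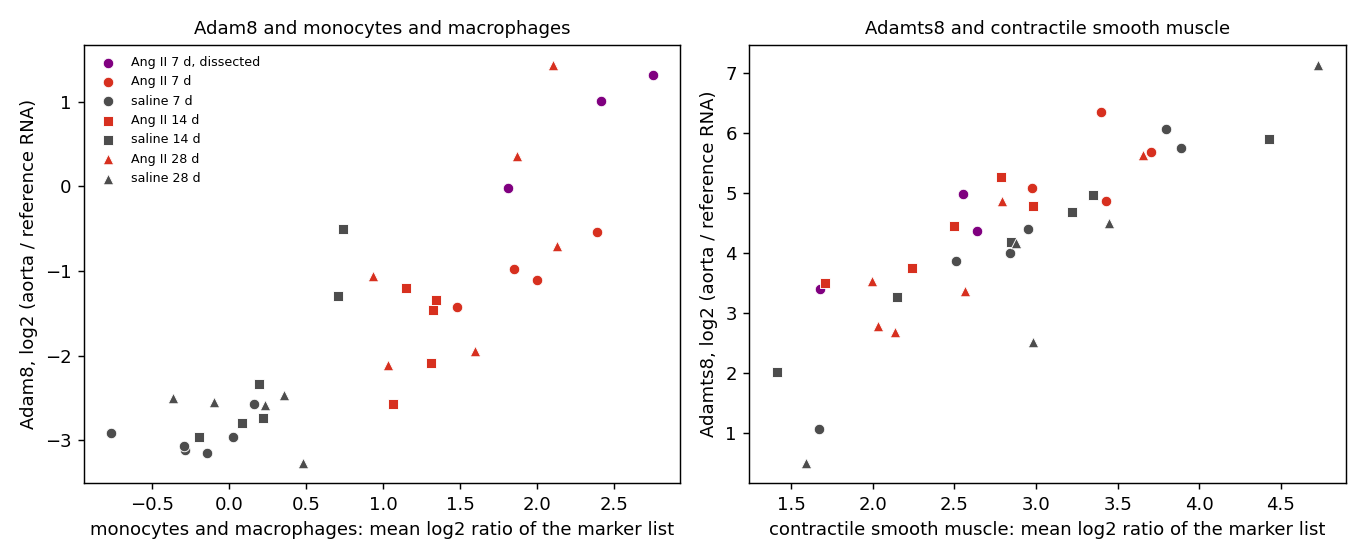
Adam8 against the mean log2 ratio of 9 monocyte and macrophage markers (left) and Adamts8 against that of 8 contractile smooth muscle markers (right), 1 point per aorta, coloured by treatment and shaped by time. Both rise together, with r of 0.86 and 0.85 over 35 arrays, as a description.

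Adamts8 followed the mean of the smooth muscle markers with r = 0.85 over 35 arrays, and with 0.93 after each group's mean was removed. The same figures were 0.63 and 0.83 with the fibroblast mean, 0.58 and 0.62 with the erythroid and 0.48 and 0.54 with the endothelial mean. The neighbouring genes Adamts8 and Adamts15 had the highest correlation among the 7, 0.77 over the arrays and 0.88 within groups, against 0.48 and 0.34 for the neighbours Adamts1 and Adamts5. Adamts4 and Adam8 correlated at 0.67, and at 0.35 within groups. Arrays share their depth and the width of their ratios, so part of any such likeness can belong to the array.

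The other genes whose ratios ran most alike over the 35 arrays were, for Adam8, the myeloid receptor gene Cd300lf (r = 0.93) and the adaptor gene Lat2 (0.92). Adamts8 was most like Prdm6 (0.94), a smooth muscle regulator, and Pdlim3 (0.92). Adamts15 ran with Htra3 (0.91), a secreted serine protease, and Mall (0.91). For Adamts4 they were Ammecr1 and Peg12, both at 0.90, and for Adamts5 Csgalnact2, an enzyme that builds chondroitin sulfate chains (0.89), and Slc38a2, an amino acid transporter (0.89). Adamts1 was most like BC082312 (0.81) and Mir22hg (0.78), and Adam12, close to background, like Cldn9 (0.76) and Abhd13 (0.75).

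Among substrates of the aggrecanases, aggrecan and versican rose at 7 days. Aggrecan (Acan) had log2 ratios of 4.14, 4.26 and 2.62 in dissected aortas and 3.52, 3.76, 3.65 and 3.24 in Ang II aortas, against 0.06 to 1.83 in saline aortas. The difference from saline was 2.56 with a standard error of 0.61 in dissected aortas (limma adjusted p = 0.0013) and 2.43 with 0.55 in Ang II aortas (adjusted p = 0.0019). Versican (Vcan) rose by 2.00 with a standard error of 0.43 in dissected and 2.48 with 0.39 in Ang II aortas (adjusted p = 0.00049 and 3.7e-05). By 28 days its Ang II effect was lower by 2.41 (adjusted p = 0.013), with a difference of 0.08 left. They were the 2 called of 6 hyalectans and link proteins tested, at 7 days and in dissected aortas alike, and none of the 6 fell. Of all genes, 14.5% rose at 7 days and 18.9% in dissected aortas. The list's median difference was -0.09 at 7 days and 0.04 in dissected aortas.

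Hyaluronan is the polymer to which aggrecan and versican bind. Of 11 genes of its synthesis, binding and breakdown, 5 rose and 1 fell at 7 days, where 14.5% of all genes rose and 12.6% fell, and the other 5 did not pass the test. The synthases Has1 and Has2 rose by 2.51 and 1.62, the hyaluronan-binding Tnfaip6 by 1.67 and the receptor Cd44 by 1.27. Cemip, which takes part in hyaluronan breakdown, was at least 2.78-fold higher, since no saline aorta of 7 days was well above background. Hyal1, a lysosomal hyaluronidase, fell by 0.74 at 7 days (adjusted p = 0.024) and by 1.51 in dissected aortas (adjusted p = 4.5e-05). In dissected aortas 5 again rose above saline and 1 fell, where 18.9% of all genes rose and 17.6% fell. Hyal2 was called there at 0.88. Cemip, with a bound of 1.69-fold over the dim saline aortas from group means alone, was not called (limma adjusted p = 0.058). Lyve1, a lymphatic and macrophage receptor, was lower in dissected than in non-dissected aortas by 2.51 (adjusted p = 0.048), where 3.06% of all genes rose and 4.98% fell. That call was kept in 10 of 24 alternatives and lost without any of the 3 dissected aortas or of Ang II replicates 1, 2 and 3.

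The inhibitors Timp1 and Timp3 went opposite ways in dissected aortas. Timp3 had log2 ratios of -0.84, -0.29 and -1.71 in dissected aortas, against 2.50, 2.38, 1.82 and 1.31 in non-dissected Ang II aortas and 0.36 to 2.25 in saline aortas of 7 days. No dissected aorta reached any other, and the difference was -2.95 from non-dissected Ang II with a standard error of 0.49 (limma adjusted p = 0.00048) and -2.17 from saline (0.46, adjusted p = 0.00037). Within the second scan day these were -2.77 (adjusted p = 0.0721) and -1.69 (adjusted p = 0.00237). In non-dissected Ang II aortas of 7 days Timp3 differed from saline by 0.78 (adjusted p = 0.16). Timp1 rose above saline by 5.07 in dissected aortas and by 4.86, 2.47 and 2.36 at 7, 14 and 28 days. It differed by 0.22 between dissected and non-dissected aortas (adjusted p = 0.89).

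**Figure D5:**
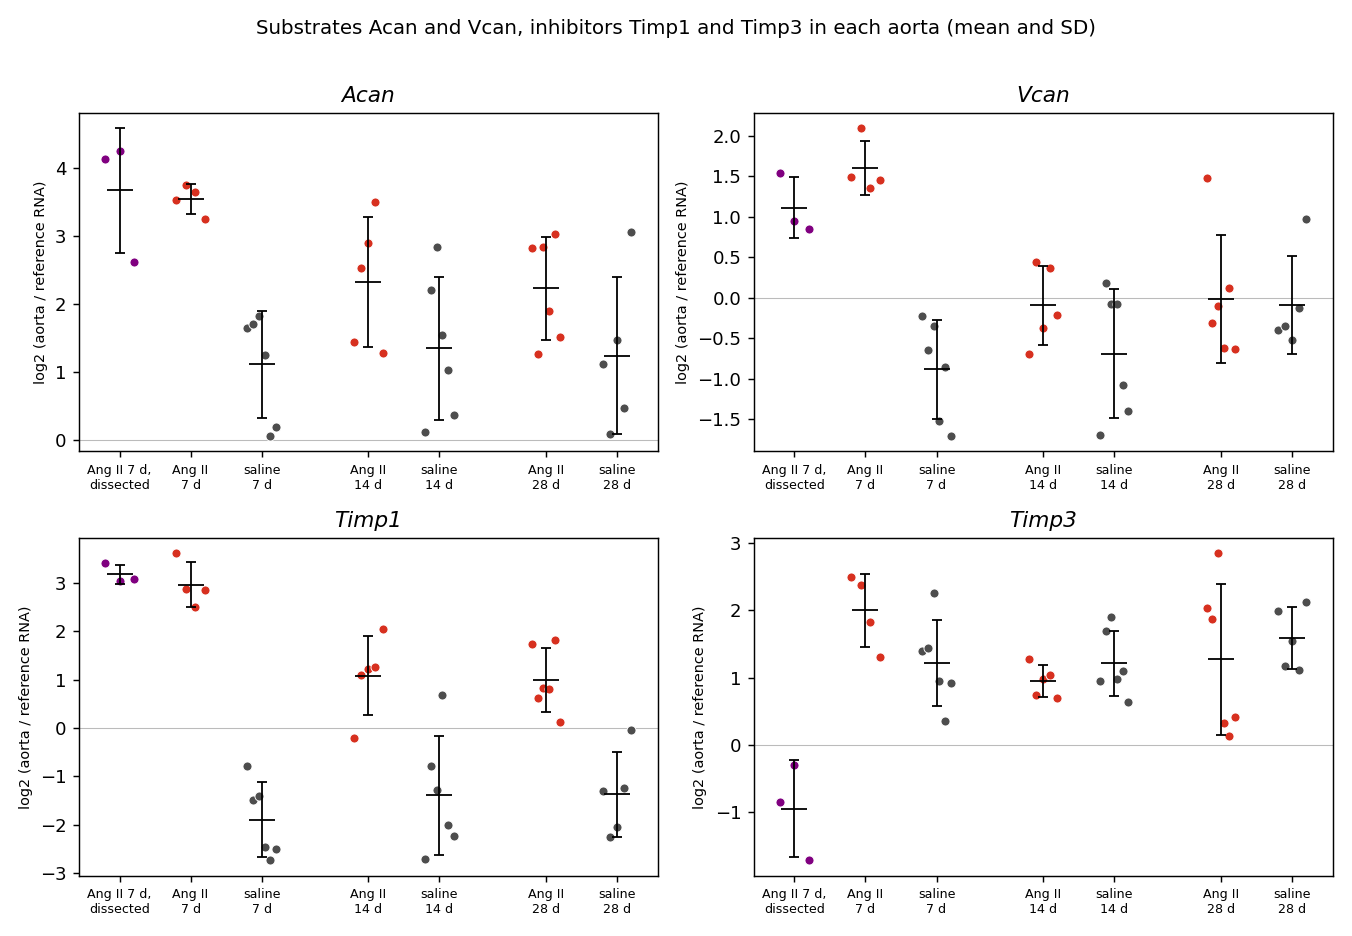
Log2 ratio of aorta to reference RNA (vertical axis) for the substrates Acan and Vcan and the inhibitors Timp1 and Timp3 in each aorta, with dissected and non-dissected Ang II left of saline. Points are aortas and bars the mean and SD. Timp3 is below 0 only in the 3 dissected aortas, at -1.71 to -0.29.

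Of the 13 tested genes that inhibit, activate or clear ADAMTS proteases, 4 rose and 1 fell at 7 days, and 4 rose and 3 fell in dissected against saline aortas. Of all genes, 14.5% rose and 12.6% fell at 7 days, and 18.9% rose and 17.6% fell in dissected aortas. Beside Timp1, the clearance receptor Lrp1 rose by 1.44, syndecan 1 (Sdc1) by 1.46 and the activating protease Furin by 0.51 at 7 days. Their differences from saline in dissected aortas were 0.99, 1.03 and 0.87, all called. The Furin call at 7 days was kept in 11 of 28 alternatives and lost without any of Ang II replicates 2, 3 and 4 or saline replicates 2, 4, 5 and 6. Pcsk6, a related activating protease, fell by 0.82 at 7 days and by 1.68 in dissected aortas, where Sdc4 fell by 0.90. The medians of this list were 0.60 at 7 days and -0.14 in dissected aortas.

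Among 11 other ADAMTS proteases tested, 5 rose and none fell at 7 days, where 14.5% of all genes rose and 12.6% fell. Adamts3, a procollagen propeptide protease, was at least 2.49-fold higher than in saline, where no aorta of 7 days was well above background. Its Ang II effect was lower at 28 than at 7 days (adjusted p = 0.00043), with no exact size since the effect at 7 days is a bound. Adamts3 was lower in dissected than in non-dissected aortas by 0.67 (adjusted p = 0.015), where 3.06% of all genes rose and 4.98% fell. The related Adamts2 rose by 2.27, Adamts10 by 0.90, Adamts7, known to cleave cartilage oligomeric matrix protein, by 0.82 and Adamts6 by 0.60. In dissected against saline aortas Adamts3, Adamts7 and Adamts16 rose and Adamts20 fell, where 18.9% of all genes rose and 17.6% fell. The Adamts16 call was kept in 11 of 25 alternatives and lost without any of dissected replicates 1 and 2 or saline replicates 3 to 6. Adamts3 and Adamts16 were there at least 1.65-fold and 1.44-fold higher and Adamts20 at least 1.34-fold lower, each dim in every aorta of the lower group, and Adamts7 rose by 1.21.

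Of 5 ADAMTS-like proteins, which lack the protease domain, Adamtsl2 rose by 1.43 at 7 days. Adamtsl2 and Adamtsl3 were lower in dissected than in non-dissected aortas, by 1.74 (adjusted p = 0.031) and 1.39 (adjusted p = 0.021). Of 10 other ADAM proteases tested, Adam9, Adam15, Adam17 and Adam19 rose at 7 days by 0.88, 0.78, 0.56 and 0.96, and none fell. At that time 14.5% of all genes rose and 12.6% fell, and in dissected against saline aortas 18.9% rose and 17.6% fell. Between dissected and non-dissected aortas 3.06% rose and 4.98% fell, and at 14 days 1.12% rose and 1.28% fell. Adam15, Adam17 and Adam19 were above saline in dissected aortas too, by 1.27, 0.71 and 1.18, and Adam19 at 14 days by 0.84 (adjusted p = 0.025). The Adam19 call at 14 days was kept in 12 of 29 alternatives and lost without any of Ang II replicates 3, 4 and 5 or saline replicates 1, 3 and 4. Adam17, which releases tumour necrosis factor from the membrane, lost its direction in dissected aortas under median centring (-0.06). Adam9 was lower in dissected than in non-dissected aortas by 1.34 (adjusted p = 0.00064), and differed from saline there by -0.47 (adjusted p = 0.087).

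Of 10 reported substrates of ADAM8 and ADAM12, 3 rose and 1 fell at 7 days, with a median of -0.10, where 14.5% of all genes rose and 12.6% fell. The selectin ligand Selplg rose by 1.59, the adhesion molecule Vcam1 by 1.80 and the growth factor binding protein Igfbp5 by 0.94. Betacellulin (Btc), a ligand of the epidermal growth factor receptor, fell by 0.95 at 7 days and by 1.05 at 14 days (adjusted p = 0.025). In dissected aortas Selplg rose above saline by 2.41, and Btc was at least 1.87-fold lower, dim in all 3 dissected aortas. In that comparison 18.9% of all genes rose and 17.6% fell, and at 14 days 1.12% rose and 1.28% fell.

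Single arrays also decided other calls among these related genes. At 7 days Adamts10, Adamtsl2, Hyal1 and Adam17 lost their calls without Ang II replicate 2, and Adam17 without Ang II replicate 4. Igfbp5 lost its call without Ang II replicate 1, 2 or 3 or saline replicate 4, 5 or 6, and Pcsk6 without Ang II replicate 1, 2 or 4 or saline replicate 3, 4 or 6. At 14 days Btc lost its call without Ang II replicate 3 or 4 or saline replicate 1 or 2. In dissected against saline aortas dissected replicate 1 decided Adamts20, Sdc1 and Sdc4, replicate 2 Hyal2, Lrp1, Sdc1 and Sdc4, and replicate 3 Adamts20 and Cd44. Saline replicate 6 decided Adamts20 there, and saline replicates 4 and 6 Sdc4. Between dissected and non-dissected aortas Adamts3 was not called without dissected replicate 2 or Ang II replicate 2, Adamtsl3 without dissected replicate 1 or 2 or Ang II replicate 2, and Adamtsl2 without dissected replicate 1 or 3 or Ang II replicate 1, 2 or 4. The adjusted p of these genes without such an array was at most 0.173, that of Adamts20 without dissected replicate 1.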

How the data were processed

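RNA of 35 aortas was labelled with Cy5 and a universal reference RNA with Cy3 on every array, per the labels' protocols, with no dye swap, so a dye effect stays in each ratio and cancels only between aortas. Per the submitters' processing notes, the scanner files come from Agilent Feature Extraction 9.5.3.1, and they give spot intensity with local background for the aorta and the reference channel. Their log10 ratio is the software's own, per the file headers. Log2 ratios fill the deposited series table, and every value equalled the log2 ratio of the software's processed signals within 0.001, so its scale and direction are known and it carries no further centring.

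Here normexp background correction (offset 50) and loess within arrays were used, with limma 3.58.1 in R 4.3.3. Spots of a probe were averaged, values marked as outliers left out, and the probe with the highest mean intensity kept for each symbol. Probes entered the test when their aorta signal stood well above background on 3 or more arrays. One model of 7 group means was fitted to 35 arrays (28 residual degrees of freedom), and p-values were adjusted by Benjamini-Hochberg over all genes. Names came from a RefSeq table, by accession (24375 probes), current symbol (6301) or older symbol (2426), and the file's name was kept for 8072. Differences are tested on the log2 scale. Bounds compare group means of the aorta channel after quantile normalization of average intensity between arrays, and they allow for no spread among aortas. The number of arrays limits the precision.

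Named are the 7 members with every probe, the genes of 7 related lists that passed in at least 1 comparison, Acan, Vcan and Timp3 whatever their values, and the 2 genes most like each member. Not tested for dim signal or lack of a probe were Adamts13, Adamts17, Adamts18, Papln, Adam22, Hapln1, Hapln2 and A2m. Members and lists were chosen with earlier results of these data known. Replicate numbers were checked for pairing. Deviations of same-numbered arrays correlated above 0.1 in every pair only for dissected and saline aortas (3 pairs, 0.13 to 0.50). For Ang II and saline aortas of 14 days, 4 of 5 pairs did, with r from 0.04 to 0.59. In an alternative fit, the replicate block, same-numbered arrays of all 7 groups shared a block. Alternatives covered background, normalization, filters, arrays left out, batches and covariates.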

Additional observations from a re-analysis of the deposited data

Results flagged for a closer look

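Among 42 groups of 4 to 6 aortas examined, 3 had a sample far from the others, and chance alone marks about 1 group in 20. In saline aortas of 28 days, replicate 2 was lowest for Adamts1 at -0.0015, with the next at 0.63, and replicate 5 was lowest for Adam8 at -3.27, with the next at -2.58. In saline aortas of 7 days, replicate 5 was lowest for Adamts15 at 1.93, with the next at 3.60. Replicate 2 at 28 days and replicate 5 at 7 days are arrays of narrow ratios.

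The Ang II effect differed between times by a limma test of the difference itself in several genes. The effect at 14 days minus that at 7 days was -1.34 for Adamts3 and -0.77 for Adamts6 on the log2 scale. The effect at 28 days minus that at 7 days was -1.15 for Adamts4, -1.35 for Adamts3, -2.16 for Has2, -2.01 for Has1, -2.41 for Vcan and -2.49 for Timp1. The Adamts4 difference was called in 9 of 18 other settings (adjusted p up to 0.417). Both Adamts3 values are of measured ratios and give no exact size, since Adamts3 was not well above background in any saline aorta of 7 days. For Adamts4 the saline level was near the limit of detection at 7 and 28 days.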

How the results depend on the processing

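Counts below are of the 7 genes called, with 2 at 7 days, 1 at 14 days, 1 at 28 days, 3 in dissected against saline aortas, 1 in dissected against non-dissected aortas and 1 in the F test among times in the fit reported. The F test called 0 with no background correction, the processed signals or the deposited table, median centring, scale normalization, no filter on dim probes, the replicate block (adjusted p = 0.0566), slide as a block, within scan day 1 or 2, tissue covariates, and without the 4 arrays of narrow or wide ratios. It ran from 0 to 1 as single arrays were left out, as did the counts at 14 and at 28 days. At 7 days 1 was called under scale normalization, 0 within scan day 2 and 1 with tissue covariates. At 14 days 0 were called under median centring, scale normalization, only the groups compared, within scan day 1 or 2, tissue covariates, and without the 4 arrays. At 28 days 2 were called on the processed signals or the deposited table and within scan day 2, and 3 under scale normalization. None were called under median centring, only the groups compared, within scan day 1, tissue covariates, and without the 4 arrays. All genes called at 28 days were 427 on the processed signals, 1468 within scan day 2 and 4040 under scale normalization. In dissected against saline aortas 5 were called on the processed signals or the deposited table, 5 with array weights and 1 under scale normalization. Of all 18671 genes, 8460, 9791 and 2213 were called in these settings, against 6818 in the fit reported. In dissected against non-dissected aortas 3 were called on the processed signals or the deposited table and with only the groups compared, 2 with the stricter filter on dim probes and with the replicate block, 4 with array weights, and 0 under scale normalization, slide as a block, within scan day 2 and tissue covariates. Of 18671 genes, 2814 were called there on the processed signals, 2315 with only the groups compared, 4776 with array weights and 1930 with the replicate block. With the stricter filter 1518 of 15661 were called. The replicate block added Adam8 there (1.95, limma adjusted p = 0.0324) and changed no call of the 7 genes in Ang II against saline at any time. Deviations of same-numbered dissected and non-dissected arrays correlated at -0.21 to 0.28. Adamts15 reversed at 28 days under scale normalization (-1.86), and Adam17 in dissected aortas under median centring (-0.059). Scale normalization widens the narrow saline arrays by construction. The cause of these and of the other changes was not tested. Median centring moved the median of all genes to -0.36 in dissected against saline aortas and turned the split of calls to 872 higher and 5439 lower, against 3524 and 3294 in the fit reported. It gave -0.29 with 55 higher and 1800 lower, against 571 and 929, in dissected against non-dissected aortas, and -0.15 at 14 days with 35 and 86, against 210 and 239. All genes called, leaving out the setting that tests probes, ran from 206 to 7952 over these settings at 7 days (5069 in the fit reported), from 1 to 1015 at 14 days (449), from 0 to 4040 at 28 days (168), from 2213 to 9791 in dissected against saline aortas (6818) and from 8 to 4776 in dissected against non-dissected aortas (1500). The settings that leave out 4 arrays or keep outlier spots were chosen after seeing the data. Signal over background limits Adam12, Adamts3, Cemip and the dimmer Adamts5 probe, among others.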
